A study of Mus musculus with 9 samples.

Results

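The mitosis genes are a list of 52 mouse genes for mitotic entry, the spindle and chromosome segregation, defined by gene name. Of these, 49 had at least 1 probe set named for them, out of 12394 genes with a named probe set on the array, and 48 were bright enough to be tested, among 8965 tested genes. The mitotic cyclin gene Ccnb1, the separase gene Espl1 and the kinesin gene Kif20b had no probe set named for them alone and were not analysed here. Cdc25c, a phosphatase that activates Cdk1, had 1 probe set, which read 15.8 to 63.2 over all arrays and stayed under the limit for testing. The data are 9 arrays of sorted mouse bone marrow cells and their descendants, 3 in each of 3 groups. GMP are normal granulocyte-macrophage progenitors, which make neutrophils and monocytes. L-GMP are cells with the GMP phenotype taken from the marrow of mice with an MLL-AF9 leukemia, in which the histone methyltransferase gene MLL is joined to AF9. L-GMP-derived cells are the progeny of L-GMP after growth in culture; their arrays carry only a code and the source L-GMP, and they were placed in this group by elimination from the design. The sources used here give no strain, age or sex, no account of how the fusion was delivered and no statement that replicate arrays stem from separate mice or cultures, so every p-value measures the spread between arrays, which may be technical.

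Cells prepare for mitosis in G2, when cyclin B and Cdk1 form the kinase that starts chromosome condensation and spindle assembly. The spindle checkpoint then holds the anaphase-promoting complex, a ubiquitin ligase, until every kinetochore is attached, after which the chromatids part and a contractile ring splits the cell. Most of these genes are transcribed in G2 and M, so their RNA level in a population depends on how many of its cells are dividing. In quiescent cells the DREAM complex represses many of them through a promoter element called CHR (cell cycle genes homology region), often beside CCAAT boxes bound by NF-Y, and in dividing cells B-MYB (Mybl2) and FOXM1 act through the same element. Normal GMP are themselves among the fast-dividing cells of the marrow.

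Promoters of the members were read from RefSeq (build GRCm38.p6) as windows from 250 bases before to 50 bases after each gene's start, 300 bases in all, and 44 of the 52 listed genes were matched. The CHR-type hexamer TTTGAA, on either strand, was in 31 of the 44 windows (70.5%), against 20.2% of 27025 genes with a window of this length. CCAAT on either strand was in 32 of them (72.7%), against 41.1% of all genes, and both were in 27 (61.4%), against 7.97%. Neither motif contains the other on either strand. The TTTGAA nearest to the start lay within 50 bases of it in 28 of the 31 genes, a count that was not made for all genes. The windows end 50 bases after the start, so every match past the start lies within that distance. The 120 bases before the start are shown for 6 members whose array values are described further on, 4 with both motifs in this stretch and, for contrast, Ccnb2 with CCAAT boxes only and Mybl2 with neither: Cdk1 at chr10:69352913-69353032 (minus strand), Ube2c at chr2:164769809-164769928 (plus strand), Cdc20 at chr4:118437344-118437463 (minus strand), Ccnb2 at chr9:70421555-70421674 (minus strand), Cks1b at chr3:89418292-89418411 (minus strand) and Mybl2 at chr2:163054515-163054634 (plus strand). Capitals mark TTTGAA and CCAAT and their reverse complements TTCAAA and ATTGG.
Cdk1: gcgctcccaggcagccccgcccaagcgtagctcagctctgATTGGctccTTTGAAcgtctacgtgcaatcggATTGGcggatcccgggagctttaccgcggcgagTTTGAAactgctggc
Ube2c: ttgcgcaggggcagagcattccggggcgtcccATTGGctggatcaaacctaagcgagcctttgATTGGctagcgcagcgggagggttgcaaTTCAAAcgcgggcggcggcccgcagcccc
Cdc20: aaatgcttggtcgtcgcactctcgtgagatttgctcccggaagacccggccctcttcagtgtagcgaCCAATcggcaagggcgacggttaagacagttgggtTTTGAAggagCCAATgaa
Ccnb2: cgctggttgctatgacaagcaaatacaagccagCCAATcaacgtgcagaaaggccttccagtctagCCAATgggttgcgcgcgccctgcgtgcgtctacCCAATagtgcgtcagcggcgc
Cks1b: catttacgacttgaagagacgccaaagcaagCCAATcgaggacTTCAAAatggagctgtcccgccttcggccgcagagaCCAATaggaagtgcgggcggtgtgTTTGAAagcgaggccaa
Mybl2: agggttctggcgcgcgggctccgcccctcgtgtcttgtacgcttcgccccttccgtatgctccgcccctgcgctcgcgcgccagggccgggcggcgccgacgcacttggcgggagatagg
Cdk1 and Cks1b, the mitotic kinase and one of its small binding subunits, each have 2 hexamers and 2 CCAAT boxes in this stretch. Ube2c and Cdc20, which work with the anaphase-promoting complex, have 1 hexamer and 2 boxes each. Ccnb2 (cyclin B2) has 3 boxes here and its nearest hexamer just past the start, at base 5, outside the stretch shown. Mybl2 has neither in this stretch. A match is a description of the letters and not evidence that a factor binds there.

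The share with the hexamer differed between gene lists. It was 35.8% of 67 other mitosis genes (cohesins, further kinetochore and spindle genes, subunits of the anaphase-promoting complex) and 16.7% of 30 DNA replication genes with a window. Among the mitosis genes it was in 13 of 15 with a window that were higher in L-GMP-derived cells than in GMP, in 9 of 10 that were higher in L-GMP than in GMP, in 3 of 5 that were higher in L-GMP-derived cells than in L-GMP, and in 12 of 21 that passed the test in no comparison. These shares were not tested.

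**Figure D1:**
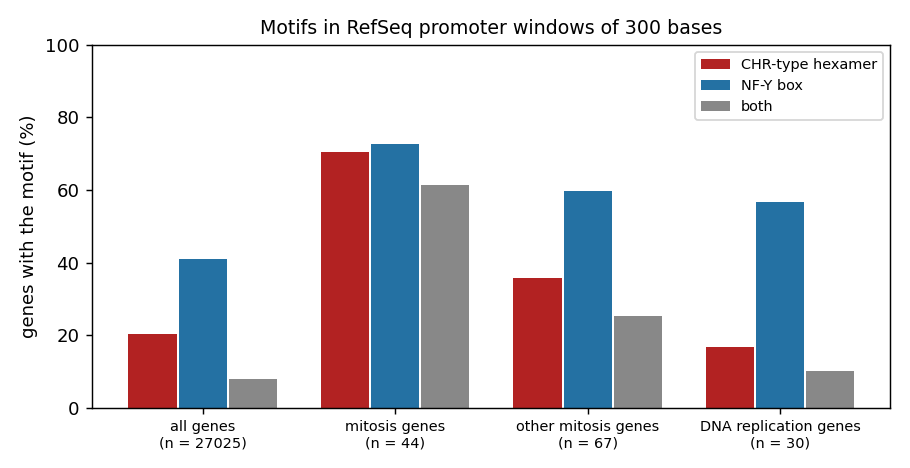
Percent of genes (y axis) whose RefSeq promoter window of 300 bases holds the CHR-type hexamer, the NF-Y box or both, for all genes, the mitosis genes, the other mitosis genes and the DNA replication genes. The mitosis genes stand highest for the hexamer, at 70.5% of 44 genes against 20.2% of all genes.

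Signals are the authors' processed array intensities, and differences are log2 differences of group means fitted with limma, with p-values adjusted by Benjamini-Hochberg over 14578 tested probe sets. A gene is given by its brightest tested probe set, and "rose" or "fell" is used where the adjusted p was under 0.05. A value after ± is the standard error of the difference. No tested member was at the floor on any array by its brightest probe set. The scaling of the arrays was even: trimmed means lay within 4.02% of each other's mean. The defining genes of the labels were checked. Kit, Cd34, Mpo and Csf1r, genes of normal GMP, were bright in GMP and L-GMP, whereas in L-GMP-derived cells Cd34 read 55.6, 35 and 18.7 and Kit 67 to 110.2, near or under the floor of 62.4 below which signals were not read. Of 9 GMP marker genes, 4 fell and 5 did not pass in L-GMP-derived cells against GMP (44.4% called, against 24.1% of all tested genes). In L-GMP against GMP 2 of the 9 rose and 2 fell (44.4% called, against 25.9% of all tested genes), with differences from -0.97 to 0.79 log2. The 9 summed to 24762 to 30072 in L-GMP-derived cells, 31826 to 38030 in L-GMP and 40462 to 41967 in GMP. Hoxa9, Meis1, Hoxa10 and Hoxa5, targets of MLL fusions, rose in both leukemic groups. One array stood apart within its group for the mitosis genes. L-GMP 1 was the highest of the 3 L-GMP arrays for 43 of the 48 tested members (89.6%, against 48.7% of all tested genes), and GMP 1 was the highest GMP array for 35 of 48 (72.9%, against 36.6%). Results that rest on L-GMP 1 are given with and without it.

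Over all members, the mean level of mitosis transcripts was highest in L-GMP-derived cells. The mean level of the 48 tested genes, in log2 centred on each gene's mean over the arrays, was -0.14, -0.23 and -0.18 on the GMP arrays, 0.22, -0.11 and -0.16 on the L-GMP arrays and 0.16, 0.26 and 0.18 on the L-GMP-derived arrays. The L-GMP-derived arrays were above all GMP arrays, while L-GMP 1 lay among the L-GMP-derived arrays and L-GMP 2 and L-GMP 3 lay near or within the range of GMP. Without Kif11, whose brightest probe set read low on 2 arrays, these values ran from -0.25 to -0.082 in GMP, from -0.12 to 0.20 in L-GMP and from 0.14 to 0.24 in L-GMP-derived cells. The spread of this level within groups was 0.13 (pooled SD). In whole populations such as these, more dividing cells and more of each RNA per dividing cell cannot be told apart.

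**Figure D2:**
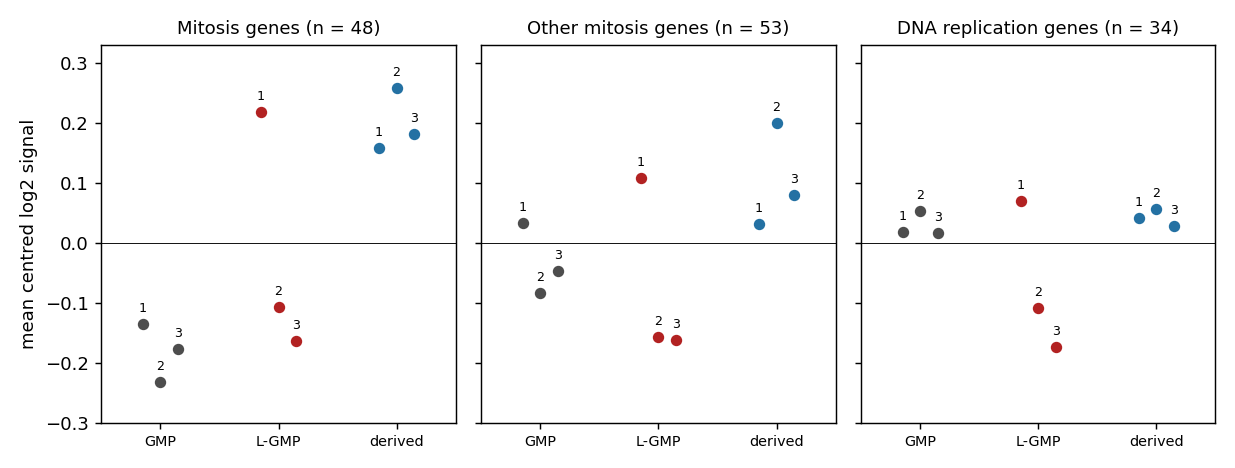
Mean log2 signal of each gene list (y axis, centred on each gene's mean over the 9 arrays) for each array, by group, with a panel for the mitosis genes (n = 48), the other mitosis genes (n = 53) and the DNA replication genes (n = 34). For the mitosis genes the L-GMP-derived arrays lie between 0.16 and 0.26 and the GMP arrays between -0.23 and -0.14, and L-GMP 1, at 0.22, stands apart from L-GMP 2 and L-GMP 3.

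Calls were more numerous between L-GMP-derived cells and GMP than in either of the other comparisons. Of the 48 tested members 17 rose and 1 fell, together 37.5%, where 24.1% of all tested genes passed in either direction, 13.4% higher and 10.7% lower. The arrays of the groups did not overlap for 27 members, against 41% of all genes, and the median log2 difference was 0.24, against 0.0044 over all genes. Those that rose were Aurka, Kif20a, Mybl2, Ube2c, Nuf2, Plk1, Tpx2, Prc1, Bub1b, Racgap1, Cdk1, Ndc80, Hmmr, Mki67, Top2a, Cenpa and Bub3, and Cks1b fell. Kif20a exceeded the limit for testing on leukemic arrays only. Leaving out GMP 2 lowered the count to 11, all higher, and leaving out L-GMP 1, which is in neither group, gave 21, with Cdc25b, Ccnb2 and Aurkb added.

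Between L-GMP and GMP, 11 members rose and 1 fell, together 25%, which is near the 25.9% of all tested genes (13.1% higher and 12.8% lower). Nearly all of the calls were rises. The groups did not overlap for 14 members, against 46.9% of all genes, and the median difference was 0.11, against -0.0075 over all genes. Nuf2, Aurka, Ccnb2, Ndc80, Bub1b, Prc1, Bub3, Mki67, Smc4, Anln and Top2a rose, and Cks1b fell. Without L-GMP 1 the count was 8, with 4 higher (Aurka, Ccnb2, Bub3 and Smc4) and 4 lower (Cks1b, Mybl2, Bub1 and Ncapg). Without L-GMP 3 it was 7, and without GMP 2 or without GMP 3 it was 4, all higher.

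Between L-GMP-derived cells and L-GMP, 9 members rose and 2 fell, together 22.9%, below the 30.7% of all tested genes (16.6% higher and 14.1% lower). Groups did not overlap for 17 members, against 41.2% of all genes, and the median was 0.12, against -0.0040 over all genes. Mybl2, Bub1, Aurkb, Kif20a, Tpx2, Hmmr, Ncapg, Aurka and Ccna2 rose, and Bub3 and Smc4 fell. Without L-GMP 1 the count was 16, all higher, with Cdc25b, Cdk1, Cenpa, Plk1, Prc1, Racgap1 and Ube2c added and Bub3 and Smc4 lost. It was 6 without L-GMP 2 or without L-GMP 3, and 5 without L-GMP-derived 2 or without L-GMP-derived 3. The 3 comparisons share arrays with each other, so they are not independent.

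**Figure D3:**
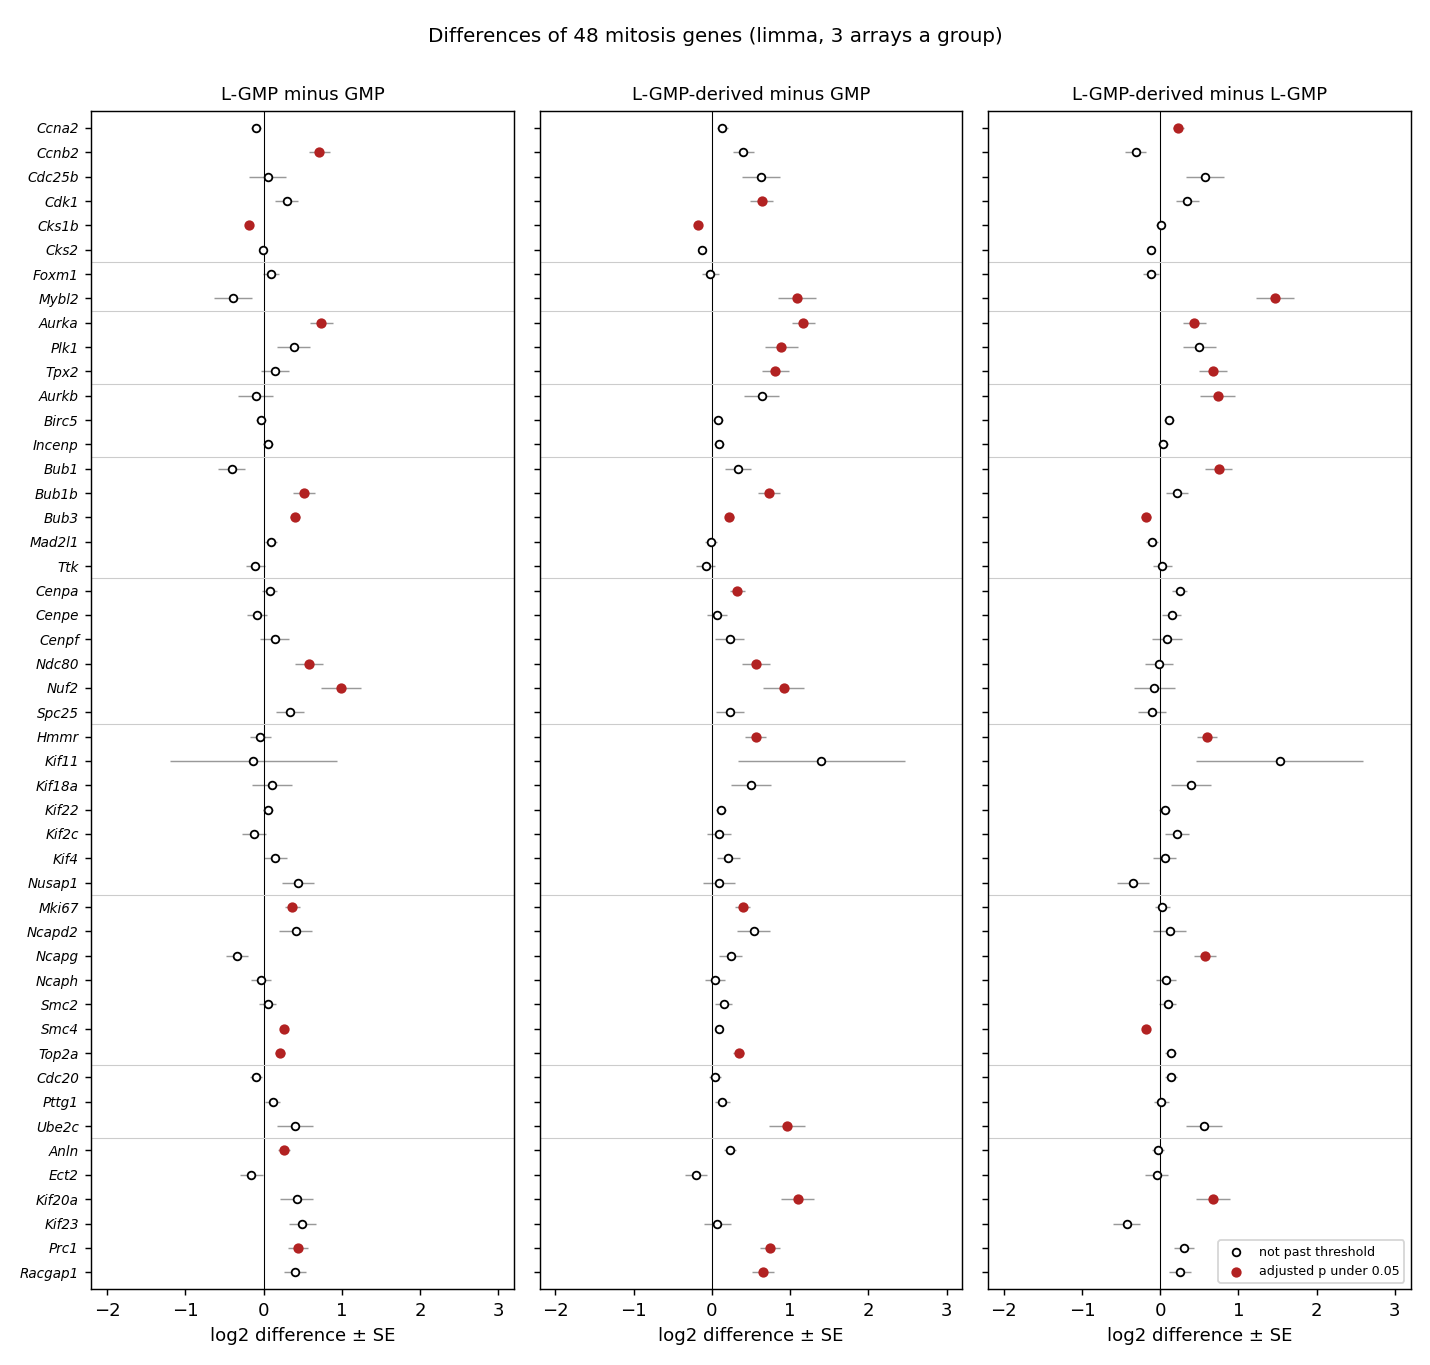
Log2 difference with its standard error (x axis) of each of the 48 tested mitosis genes (y axis, grouped by role) in the 3 comparisons. Filled points have an adjusted p under 0.05. Mybl2, Aurka and Kif20a reach the largest differences among them in L-GMP-derived cells against GMP, at 1.08, 1.17 and 1.10. Kif20a exceeded the limit for testing on leukemic arrays only, and Kif11 has the widest error.

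Of the 6 tested genes of cyclins, Cdk1 and its activators, Ccnb2 (cyclin B2) rose in L-GMP over GMP, Cdk1 in L-GMP-derived cells over GMP, and Ccna2 from L-GMP to L-GMP-derived cells, while Cks1b fell in both leukemic groups. Ccnb2 read 1428, 1312 and 1317 on the GMP arrays, 2588, 1979 and 2127 on the L-GMP arrays and 2128, 1537 and 1740.4 on the L-GMP-derived arrays. All 3 L-GMP arrays exceeded all GMP arrays, and so did the L-GMP-derived arrays. The difference of Ccnb2 from GMP was 0.71 ± 0.13 log2 (adjusted p = 0.00298) for L-GMP, a 1.64-fold rise, and 0.40 ± 0.13 log2 (adjusted p = 0.0519) for L-GMP-derived cells, which missed the threshold and passed without L-GMP 1 (adjusted p = 0.0396). Cdk1 read 1678, 1209.9 and 1240.0 on the GMP arrays, 2017, 1495 and 1538 on the L-GMP arrays and 2092, 2150.2 and 2110.3 on the L-GMP-derived arrays. Every L-GMP-derived array was above every other array. The difference from GMP was 0.64 ± 0.15 log2 (adjusted p = 0.00974), and from L-GMP it was 0.34 ± 0.15 log2 (adjusted p = 0.104), or 0.48 log2 (adjusted p = 0.0313) without L-GMP 1. Ccna2, the cyclin of S phase and G2, read 3724, 3409 and 3580.2 on the GMP arrays, 3537, 3303 and 3172 on the L-GMP arrays and 3640.1, 3977 and 4148 on the L-GMP-derived arrays. The L-GMP arrays lay below the L-GMP-derived arrays, and Ccna2 rose by 0.23 ± 0.068 log2 (adjusted p = 0.0263) from L-GMP to L-GMP-derived cells, a call lost without any one of L-GMP 2, L-GMP 3, L-GMP-derived 2 or L-GMP-derived 3 (adjusted p 0.0741 to 0.103). A second Ccna2 probe set (1417911_at) gave 0.37 log2 (adjusted p = 0.0161) in that comparison.

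Cks1b and Cks2, which bind Cdk1 and Cdk2, were bright in every group. Cks1b read 6467, 6091 and 6251 on the GMP arrays, 5722, 5581 and 5246 on the L-GMP arrays and 5244, 5928 and 5466 on the L-GMP-derived arrays. The GMP arrays were the highest, and Cks1b fell in both leukemic groups, with differences of -0.19 ± 0.054 log2 (adjusted p = 0.0288) in L-GMP and -0.18 ± 0.054 log2 (adjusted p = 0.0353) in L-GMP-derived cells. The first call was lost without any one of L-GMP 2, L-GMP 3, GMP 1, GMP 2 or GMP 3 (adjusted p 0.052 to 0.103), and the second without any one of L-GMP 2, L-GMP-derived 1, L-GMP-derived 3, GMP 1, GMP 2 or GMP 3 (adjusted p 0.0505 to 0.115). A dimmer Cks1b probe set (1448441_at) gave -0.13 and 0.049, neither past the threshold. Cks2 and Cdc25b did not pass the test in any comparison of all 9 arrays. Cks2 read 6576 to 6703 in GMP, 6155 to 6934 in L-GMP and 5739 to 6303 in L-GMP-derived cells, and Cdc25b, a phosphatase that activates Cdk1, read 246 to 313 in GMP, 225 to 418 in L-GMP and 331 to 507 in L-GMP-derived cells. Without L-GMP 1, Cdc25b was higher in L-GMP-derived cells than in L-GMP, by 0.85 log2 (adjusted p = 0.0106), and than in GMP, by 0.63 log2 (adjusted p = 0.0265).

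Of the transcription factors of the G2/M programme, Mybl2 varied most and Foxm1 little. Mybl2, which encodes B-MYB, read 129, 168 and 173 on the GMP arrays, 181, 85 and 109 on the L-GMP arrays and 297, 367 and 327 on the L-GMP-derived arrays. The L-GMP-derived arrays were above all others, and the L-GMP and GMP arrays overlapped. Mybl2 rose 2.12-fold over GMP, with a log2 difference of 1.08 ± 0.24 log2 (adjusted p = 0.009), and 2.78-fold over L-GMP, with 1.47 ± 0.24 log2 (adjusted p = 0.00125). Both calls held with any 1 array left out, and without L-GMP 1 Mybl2 was also lower in L-GMP than in GMP, at -0.69 log2 (adjusted p = 0.0248). The call over GMP was lost without the filter on dim probe sets and with a block for replicate number (adjusted p up to 0.111). A dimmer Mybl2 probe set (1454946_at), under the limit for testing, did not show the rise. It read 93.1 to 138 in GMP, 90.9 to 106 in L-GMP and 83.2 to 119 in L-GMP-derived cells. Foxm1 read 635, 693 and 654 on the GMP arrays, 707, 663 and 755 on the L-GMP arrays and 660.0, 651 and 644 on the L-GMP-derived arrays. The L-GMP-derived arrays lay within the range of GMP and the L-GMP arrays overlapped it, with differences of 0.10 log2 (adjusted p = 0.533) for L-GMP and -0.019 log2 (adjusted p = 0.917) for L-GMP-derived cells against GMP.

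The kinase genes Aurka and Plk1 and the gene Tpx2, grouped together here, rose in L-GMP-derived cells over GMP, and Aurka rose in L-GMP too. Among kinase genes placed in other groups, Cdk1 rose in L-GMP-derived cells over GMP. Aurkb, Bub1 and Ttk did not pass there by their brightest probe sets (adjusted p = 0.063, 0.179 and 0.671). Aurka, the kinase that matures centrosomes and builds the spindle, read 537, 445 and 496 on the GMP arrays, 1025, 738 and 724 on the L-GMP arrays and 1104, 1089 and 1124 on the L-GMP-derived arrays. The groups formed an order without overlap, GMP lowest and L-GMP-derived highest. Aurka differed from GMP by 0.74 ± 0.15 log2 (adjusted p = 0.0042) in L-GMP and by 1.17 ± 0.15 log2 (adjusted p = 2.79e-04) in L-GMP-derived cells, a 2.25-fold rise. Both held with any 1 array left out, with adjusted p at most 0.0239 and 0.00248. The step from L-GMP to L-GMP-derived cells, 0.43 ± 0.15 log2 (adjusted p = 0.0465), was lost without any one of L-GMP 2, L-GMP 3, L-GMP-derived 1, L-GMP-derived 2, L-GMP-derived 3, GMP 1, GMP 2 or GMP 3 (adjusted p 0.0553 to 0.156).

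Plk1, the polo kinase that drives mitotic entry and centrosome maturation, read 257, 225 and 247 on the GMP arrays, 426, 297 and 254 on the L-GMP arrays and 342, 532 and 499 on the L-GMP-derived arrays. The L-GMP-derived arrays were above all GMP arrays, and L-GMP 1 alone among the L-GMP arrays reached their range. Plk1 rose by 0.89 ± 0.21 log2 (adjusted p = 0.0116) over GMP, and the difference from L-GMP was 0.50 ± 0.21 log2 (adjusted p = 0.103), or 0.71 log2 (adjusted p = 0.0241) without L-GMP 1. Tpx2, which activates Aurora A on spindle microtubules, read 283, 301 and 284 on the GMP arrays, 238, 347 and 392 on the L-GMP arrays and 532, 555 and 443 on the L-GMP-derived arrays. Here the L-GMP arrays overlapped the GMP arrays and the L-GMP-derived arrays stood above both. Tpx2 rose by 0.81 ± 0.18 log2 (adjusted p = 0.00771) over GMP and by 0.67 ± 0.18 log2 (adjusted p = 0.0161) over L-GMP, the second call being lost without L-GMP-derived 2 (adjusted p = 0.0563). A dimmer Tpx2 probe set (1428105_at) showed 0.092 log2 (adjusted p = 0.767) and 0.034 log2 (adjusted p = 0.915).

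**Figure D4:**
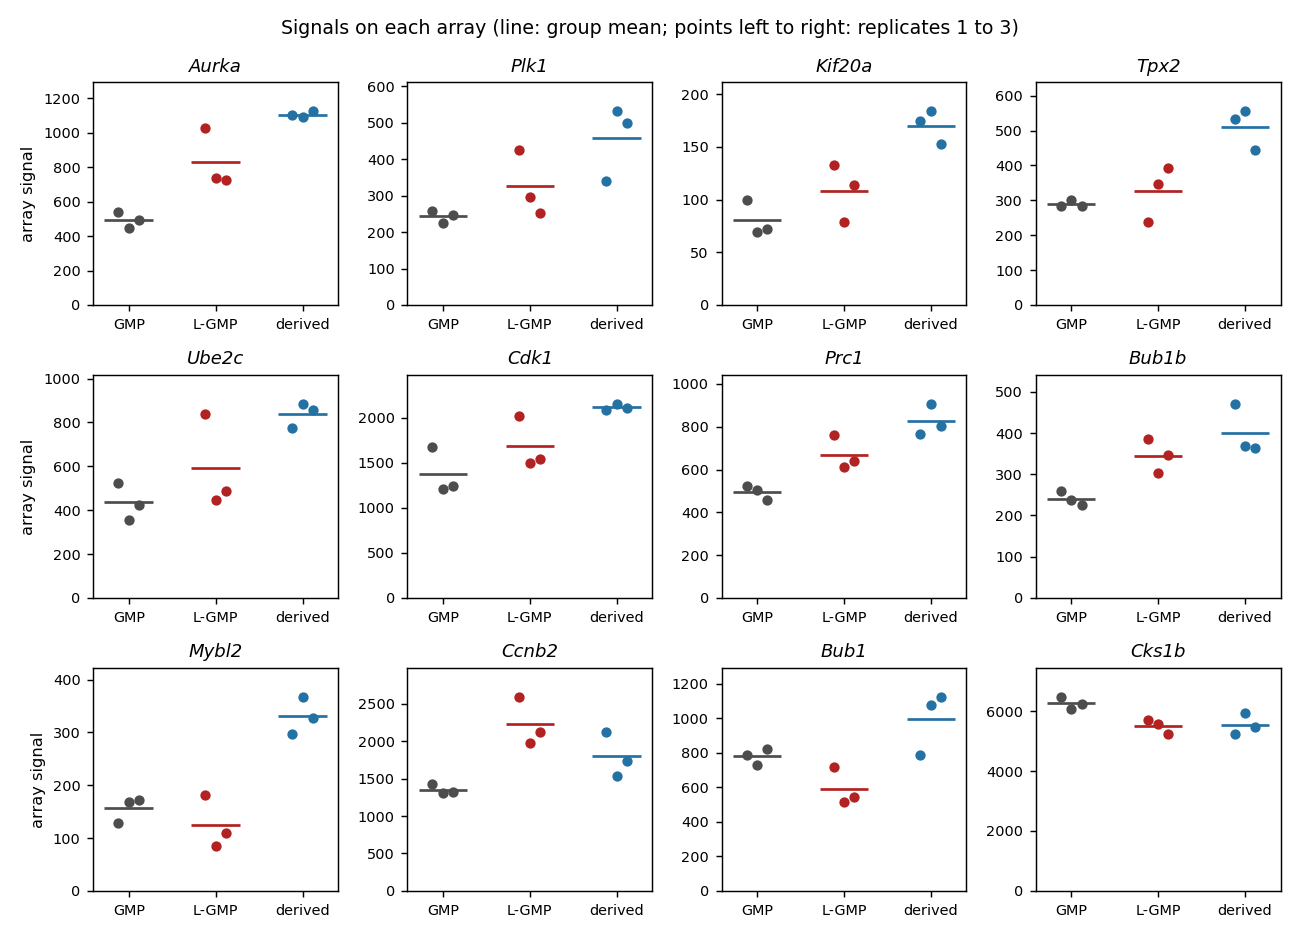
Array signal (y axis, linear, from 0) of 12 mitosis genes by group, with points for replicates 1 to 3 from left to right and a line for the group mean. The L-GMP-derived arrays are above the GMP arrays for Aurka, Plk1, Kif20a, Tpx2, Ube2c, Cdk1, Prc1, Bub1b and Mybl2, and Cks1b is highest in GMP.

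In the chromosomal passenger complex, which corrects faulty kinetochore attachments, the kinase gene Aurkb rose and its partners Birc5 and Incenp did not pass by their brightest probe sets. Aurkb read 414, 303 and 346 on the GMP arrays, 446, 252 and 311 on the L-GMP arrays and 428, 614 and 620.2 on the L-GMP-derived arrays. L-GMP 1 overlapped the L-GMP-derived arrays, the other L-GMP arrays did not. Aurkb rose by 0.74 ± 0.22 log2 (adjusted p = 0.0297) over L-GMP and differed from GMP by 0.64 ± 0.22 log2 (adjusted p = 0.063), or 0.64 log2 (adjusted p = 0.0337) without L-GMP 1. The call against L-GMP was lost without any one of L-GMP 2, L-GMP 3, L-GMP-derived 2 or L-GMP-derived 3 (adjusted p 0.0828 to 0.116), while without L-GMP 1 the difference was 0.96 log2 (adjusted p = 0.00829). A second Aurkb probe set (1424128_x_at) passed in both comparisons, at 0.60 log2 (adjusted p = 0.0386) against GMP and 0.63 log2 (adjusted p = 0.0267) against L-GMP. Both Aurkb probe sets end in _s_at or _x_at, a kind that can also detect other transcripts, and Aurkb had no other named probe set. Birc5, the gene of survivin, read 3011, 2671 and 2909 on the GMP arrays, 2885, 2789.5 and 2722 on the L-GMP arrays and 3117, 2988 and 2965 on the L-GMP-derived arrays. These values lay close together in all groups, and the largest difference was 0.11 log2 (adjusted p = 0.235) between L-GMP-derived cells and L-GMP.

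Of the 5 spindle checkpoint genes, Bub1b and Bub3 rose in both leukemic groups over GMP, Bub1 rose and Bub3 fell from L-GMP to L-GMP-derived cells, and Mad2l1 and Ttk passed nowhere. Bub1b, which encodes the checkpoint protein BubR1, read 259.9, 237 and 225 on the GMP arrays, 385, 303 and 346 on the L-GMP arrays and 469.7, 368 and 365 on the L-GMP-derived arrays. Both leukemic groups were above all GMP arrays. Bub1b rose by 0.73 ± 0.14 log2 (adjusted p = 0.00406) in L-GMP-derived cells and by 0.51 ± 0.14 log2 (adjusted p = 0.0219) in L-GMP, the latter lost without any one of L-GMP 1, L-GMP 3, GMP 2 or GMP 3 (adjusted p 0.0595 to 0.0907). Bub1, the checkpoint kinase, read 786, 728 and 824 on the GMP arrays, 719, 515 and 544 on the L-GMP arrays and 786, 1079 and 1122 on the L-GMP-derived arrays. The L-GMP arrays were the lowest of all, and Bub1 was 1.68-fold higher in L-GMP-derived cells than in L-GMP, with 0.75 ± 0.17 log2 (adjusted p = 0.0073), a call that held with any 1 array left out. Against GMP it differed by -0.41 log2 (adjusted p = 0.104) in L-GMP, or -0.56 log2 (adjusted p = 0.0408) without L-GMP 1, and a dimmer probe set (1438571_at) passed there at -0.90 log2 (adjusted p = 0.00627).

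Bub3, a WD40 protein of the checkpoint, read 3319.9, 3022 and 2974 on the GMP arrays, 4225, 3946 and 4133 on the L-GMP arrays and 3667, 3657 and 3526 on the L-GMP-derived arrays. It was highest in L-GMP, with no overlap between groups. Bub3 rose by 0.40 ± 0.06 log2 (adjusted p = 7.42e-04) in L-GMP and by 0.22 ± 0.06 log2 (adjusted p = 0.021) in L-GMP-derived cells over GMP, and fell by 0.18 ± 0.06 on the log2 scale from L-GMP to L-GMP-derived cells (adjusted p = 0.0423). The fall was lost without any one of L-GMP 1, L-GMP 2, L-GMP 3, L-GMP-derived 2, L-GMP-derived 3, GMP 2 or GMP 3 (adjusted p 0.0541 to 0.126), and the rise in L-GMP-derived cells without any one of L-GMP-derived 2, GMP 2 or GMP 3 (adjusted p 0.0594 to 0.0915). A dimmer Bub3 probe set (1448473_at) did not show these steps, at 0.039, 0.16 and 0.12. Mad2l1 and Ttk, the genes of MAD2 and of the kinase MPS1, read 1808 to 1985 in GMP, 1961 to 2061 in L-GMP and 1761 to 1980.1 in L-GMP-derived cells for Mad2l1 and 184 to 193 in GMP, 166 to 196 in L-GMP and 165 to 197 in L-GMP-derived cells for Ttk.

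Of the 6 centromere and kinetochore genes 2 rose in L-GMP and 3 in L-GMP-derived cells over GMP, and none passed between the leukemic groups by limma. Ndc80 and Nuf2, which bind microtubules as parts of the same complex, rose in both leukemic groups. Ndc80 read 194, 181 and 199.6 on the GMP arrays, 375, 265 and 235 on the L-GMP arrays and 316, 302 and 239 on the L-GMP-derived arrays. All leukemic arrays were above all GMP arrays. Ndc80 rose by 0.58 ± 0.18 log2 (adjusted p = 0.0361) in L-GMP and 0.57 ± 0.18 log2 (adjusted p = 0.0409) in L-GMP-derived cells, but the first call was lost without any one of L-GMP 1, L-GMP 2, GMP 1, GMP 2 or GMP 3 (adjusted p 0.0583 to 0.112) and the second without any one of L-GMP 2, L-GMP-derived 1, L-GMP-derived 2, GMP 1, GMP 2 or GMP 3 (adjusted p 0.0548 to 0.124). Nuf2 read 219, 115 and 118 on the GMP arrays, 363, 213 and 303 on the L-GMP arrays and 254, 309.7 and 256 on the L-GMP-derived arrays. The spread among the L-GMP arrays was wide, and 1 of them overlapped GMP. Nuf2 rose by 0.99 ± 0.26 log2 (adjusted p = 0.0178) in L-GMP and 0.92 ± 0.26 log2 (adjusted p = 0.0268) in L-GMP-derived cells, calls lost without any one of L-GMP 1, L-GMP 3, GMP 2 or GMP 3 (adjusted p 0.0576 to 0.0821) and without any one of L-GMP-derived 2, L-GMP-derived 3, GMP 2 or GMP 3 (adjusted p 0.057 to 0.111), respectively.

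Cenpa, the histone H3 variant of centromeres, read 1934, 1721 and 1828 on the GMP arrays, 2131, 1752 and 1910.3 on the L-GMP arrays and 2415, 2276 and 2177 on the L-GMP-derived arrays. Each L-GMP-derived array was above all others. Cenpa rose by 0.33 ± 0.093 log2 (adjusted p = 0.0269) over GMP, a call lost without any one of L-GMP-derived 2, GMP 2 or GMP 3 (adjusted p 0.0611 to 0.108). Spc25, Cenpe and Cenpf passed the test nowhere. Spc25, a further part of the Ndc80 complex, read 986 to 1131 in GMP, 1136 to 1556 in L-GMP and 931 to 1514 in L-GMP-derived cells.

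Of the 7 spindle motor and spindle protein genes, Hmmr was the only one to pass by its brightest probe set. Hmmr, which organises spindle poles, read 1069, 1018 and 1026 on the GMP arrays, 1204, 969 and 880.0 on the L-GMP arrays and 1360.1, 1596 and 1640.2 on the L-GMP-derived arrays. The L-GMP-derived arrays stood above the rest. Hmmr rose by 0.56 ± 0.13 log2 (adjusted p = 0.0104) over GMP and 0.60 ± 0.13 log2 (adjusted p = 0.00575) over L-GMP, and both held with any 1 array left out. Its 2 dimmer probe sets did not pass, with log2 differences of 0.34 and 0.33 from L-GMP and of 0.27 and 0.0088 from GMP, and the call over GMP was lost with the mean over all Hmmr probe sets. Kif11, the motor that pushes spindle poles apart, had 1 irregular probe set. Its brightest probe set read 113, 1072 and 1139.7 on the GMP arrays, 1332, 1021 and 76.8 on the L-GMP arrays and 1318, 1464 and 1301 on the L-GMP-derived arrays. The low readings on GMP 1 and L-GMP 3 were absent from its other probe sets, of which 1452314_at rose by 0.77 log2 (adjusted p = 0.00701) in L-GMP-derived cells over GMP. Kif22, Kif2c, Kif4, Kif18a and Nusap1 passed nowhere, and their differences ran from -0.35 to 0.50.

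Of the 7 chromosome condensation genes, Mki67 and Top2a rose in both leukemic groups over GMP, Smc4 rose in L-GMP over GMP and fell from there to L-GMP-derived cells, and Ncapg rose from L-GMP to L-GMP-derived cells. Mki67, which coats mitotic chromosomes and marks dividing cells, read 2541, 2133 and 2154 on the GMP arrays, 3172, 2952 and 2679 on the L-GMP arrays and 3245, 2962 and 2774 on the L-GMP-derived arrays. All leukemic arrays were above all GMP arrays, and Mki67 rose by 0.37 ± 0.10 log2 (adjusted p = 0.0172) in L-GMP and 0.40 ± 0.10 log2 (adjusted p = 0.0126) in L-GMP-derived cells. The first call was lost without any one of L-GMP 1, L-GMP 2, GMP 2 or GMP 3 (adjusted p 0.0519 to 0.076) and the second without GMP 2 or without GMP 3 (adjusted p 0.0577 and 0.0594). Top2a, the topoisomerase that untangles sister chromatids, read 4059, 3440.4 and 3427 on the GMP arrays, 4334, 4029.6 and 4232 on the L-GMP arrays and 4529, 4708 and 4578 on the L-GMP-derived arrays. The L-GMP-derived arrays were the highest, and GMP and L-GMP overlapped. Top2a rose by 0.34 ± 0.069 log2 (adjusted p = 0.00497) in L-GMP-derived cells over GMP and by 0.21 ± 0.069 log2 (adjusted p = 0.0476) in L-GMP, the latter lost without any one of L-GMP 1, L-GMP 2, L-GMP 3, L-GMP-derived 2, L-GMP-derived 3, GMP 2 or GMP 3 (adjusted p 0.0594 to 0.178).

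Smc4, a core ATPase of condensin, read 4240.2, 3982 and 4082 on the GMP arrays, 5093, 4631 and 5065 on the L-GMP arrays and 4344, 4422 and 4294 on the L-GMP-derived arrays. By its brightest probe set Smc4 was highest in L-GMP, where no array overlapped the other groups. It rose by 0.26 ± 0.052 log2 (adjusted p = 0.00386) in L-GMP over GMP and fell by 0.18 ± 0.052 on the log2 scale from L-GMP to L-GMP-derived cells (adjusted p = 0.0249). The fall was lost without any one of L-GMP 1, L-GMP 3 or L-GMP-derived 3 (adjusted p 0.0752 to 0.0858). Other alternatives lost it too, among them the mean over all Smc4 probe sets and a fit of only the 6 arrays compared. Over all alternatives its adjusted p reached 0.148. Dimmer Smc4 probe sets read 477 to 1016 (1427276_at) and 3317 to 4033 (1452197_at) over all arrays. Ncapg, a subunit of condensin I, read 2201, 1872 and 2071 on the GMP arrays, 2058, 1549 and 1327 on the L-GMP arrays and 2464, 2528 and 2251 on the L-GMP-derived arrays. The L-GMP-derived arrays were the highest, and Ncapg rose by 0.58 ± 0.14 log2 (adjusted p = 0.0115) over L-GMP, a call that held with any 1 array left out. A second Ncapg probe set (1429171_a_at) rose too, by 0.73 log2 (adjusted p = 0.00693). Without L-GMP 1, Ncapg was lower in L-GMP than in GMP, by -0.51 log2 (adjusted p = 0.00969). Ncapd2, Ncaph and Smc2 did not pass by their brightest probe sets.

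Of the anaphase genes, Ube2c rose and Cdc20 and Pttg1 did not pass by their brightest probe sets. Ube2c, the ubiquitin-conjugating enzyme of the anaphase-promoting complex, read 525, 357 and 423 on the GMP arrays, 838, 445 and 488 on the L-GMP arrays and 776, 883 and 859 on the L-GMP-derived arrays. L-GMP-derived arrays were above all GMP arrays, and L-GMP 1 was above 1 of them. Ube2c rose 1.95-fold over GMP, with 0.96 ± 0.23 log2 (adjusted p = 0.0113), a call lost without GMP 2 (adjusted p = 0.053), and differed from L-GMP by 0.56 log2 (adjusted p = 0.089), or 0.85 log2 (adjusted p = 0.00597) without L-GMP 1. Cdc20, the activator of the anaphase-promoting complex, read 4424, 4842 and 4812 on the GMP arrays, 4713, 4329.9 and 4150.2 on the L-GMP arrays and 5342, 4384 and 4783 on the L-GMP-derived arrays, by its brightest probe set. The groups overlapped, with differences from GMP of -0.095 and 0.04. Its 2 other tested probe sets rose in L-GMP-derived cells over GMP, by 0.60 log2 (adjusted p = 0.0129) for 1416664_at and 1.22 log2 (adjusted p = 0.00397) for 1439394_x_at.

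Of the 6 tested genes of the spindle midzone and cytokinesis, Kif20a, Prc1 and Racgap1 rose in L-GMP-derived cells over GMP, Prc1 and Anln in L-GMP over GMP, and Kif20a from L-GMP to L-GMP-derived cells. Kif20a, the midzone kinesin that recruits Plk1, read 99.4, 69 and 72.5 on the GMP arrays, 133, 79.2 and 114 on the L-GMP arrays and 174, 184 and 153 on the L-GMP-derived arrays. The L-GMP-derived arrays were above all others, L-GMP and GMP overlapped, and the lowest GMP readings lay close to the floor of 62.4. No GMP array exceeded the limit of 111 for testing, so Kif20a was tested only because of its signal on leukemic arrays. Kif20a rose 2.14-fold over GMP, with 1.10 ± 0.21 log2 (adjusted p = 0.00402), and by 0.68 ± 0.21 log2 (adjusted p = 0.0344) over L-GMP, the latter lost without any one of L-GMP 2, L-GMP 3, L-GMP-derived 1, L-GMP-derived 2 or L-GMP-derived 3 (adjusted p 0.0531 to 0.122). Prc1, which bundles the midzone microtubules, read 523, 503 and 456 on the GMP arrays, 760.3, 609.8 and 639 on the L-GMP arrays and 767, 905 and 802 on the L-GMP-derived arrays. The 3 groups were in an order without overlap, GMP lowest. Prc1 rose by 0.74 ± 0.13 log2 (adjusted p = 0.00202) in L-GMP-derived cells and by 0.44 ± 0.13 log2 (adjusted p = 0.0286) in L-GMP, the latter lost without any one of L-GMP 1, L-GMP 3, GMP 2 or GMP 3 (adjusted p 0.0513 to 0.117).

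Racgap1, a central spindle protein, read 259.7, 234 and 239 on the GMP arrays, 396, 283 and 297 on the L-GMP arrays and 389.9, 403 and 357 on the L-GMP-derived arrays. All leukemic arrays were above all GMP arrays, and the call was for L-GMP-derived cells at 0.65 ± 0.14 log2 (adjusted p = 0.00736), while L-GMP was at 0.40 log2 (adjusted p = 0.0621). The call was lost with the mean over all Racgap1 probe sets and with a block for replicate number (adjusted p up to 0.063). A dimmer Racgap1 probe set (1421546_a_at) read 65.5 to 183 over all arrays. Anln, anillin of the contractile ring, read 2316, 2165 and 2188 on the GMP arrays, 2693, 2880.0 and 2444 on the L-GMP arrays and 2643, 2496 and 2697 on the L-GMP-derived arrays. All leukemic arrays were above all GMP arrays. Anln rose by 0.26 ± 0.078 log2 (adjusted p = 0.0301) in L-GMP, a call lost without any one of L-GMP 1, L-GMP 2, GMP 2 or GMP 3 (adjusted p 0.0764 to 0.113), and differed by 0.23 log2 (adjusted p = 0.0519) in L-GMP-derived cells. Kif23, the partner of Racgap1, and Ect2 passed nowhere. Kif23 read 360.1 to 451 in GMP, 476 to 722 in L-GMP and 379 to 483 in L-GMP-derived cells.

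Several members were measured by more than 1 probe set, and not all of these moved together. Of 22 genes with 2 or more tested probe sets, some disagreed on whether the threshold was passed: 7 for L-GMP against GMP, 10 for L-GMP-derived cells against GMP and 5 for L-GMP-derived cells against L-GMP. No gene had probe sets called in opposite directions. In several of these the brightest probe set was flat and a dimmer one rose. In others, among them Tpx2, Hmmr, Bub3 and Cks1b, the brightest probe set passed and a dimmer one did not. Incenp, the scaffold of the passenger complex, read 4436, 4410.0 and 4393 on the GMP arrays, 4896, 4363 and 4510.1 on the L-GMP arrays and 5143, 4415 and 4602 on the L-GMP-derived arrays by its brightest probe set, while 1423092_at rose by 0.45 log2 (adjusted p = 0.0435) in L-GMP and 0.48 log2 (adjusted p = 0.0381) in L-GMP-derived cells. Ncaph, a condensin I subunit, differed by -0.033 between L-GMP and GMP by its brightest probe set and by 0.59 log2 (adjusted p = 0.0237) by 1423920_at. Probe sets ending in _x_at or _s_at, which can also detect other transcripts, were the brightest for 9 of the 48 genes. The counts of members by brightest probe set therefore leave out calls of dimmer probe sets only, and include calls that dimmer ones did not share. Over all 76 tested probe sets of the members 24 rose and 1 fell in L-GMP-derived cells against GMP, where 24.4% of all tested probe sets passed, 14% higher and 10.4% lower.

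**Figure D5:**
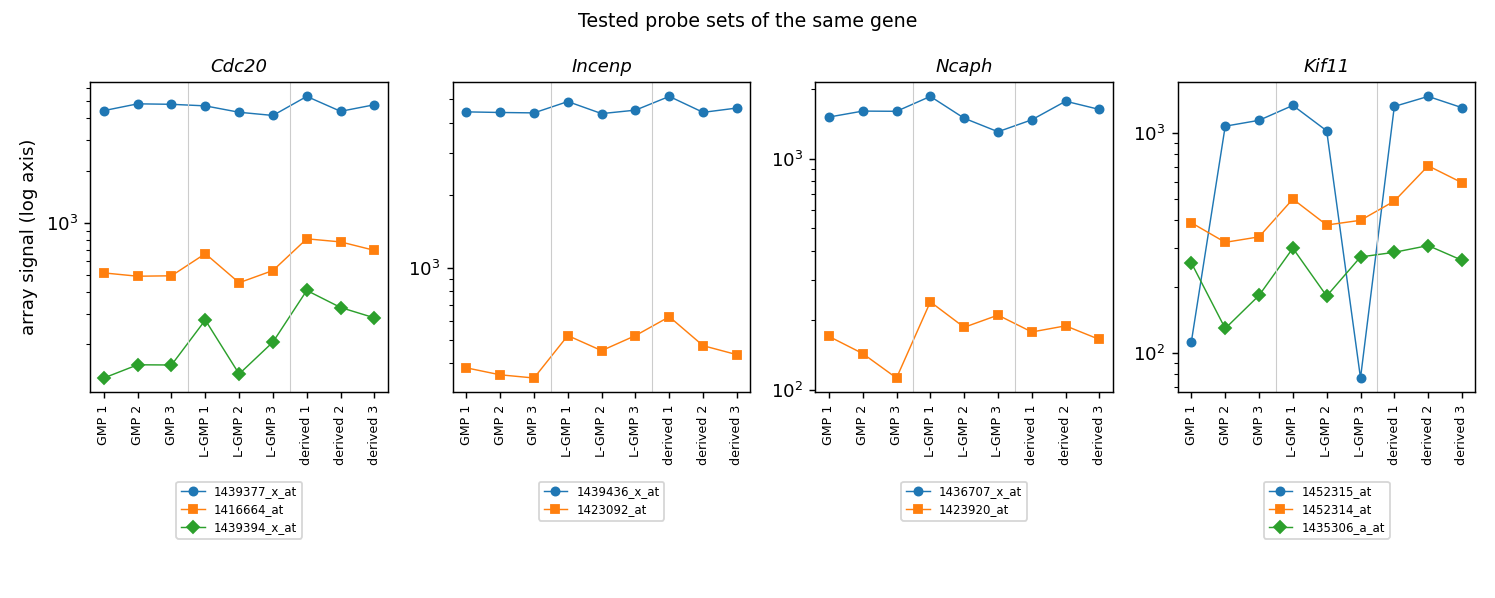
Array signal (y axis, log scale) of each tested probe set of Cdc20, Incenp, Ncaph and Kif11 on the 9 arrays (x axis). The brightest Cdc20, Incenp and Ncaph probe sets are flat where dimmer ones differ between groups, and the brightest Kif11 probe set drops to 113 on GMP 1 and 77 on L-GMP 3.

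Other genes of the pathway, were taken from separate lists. Of 53 tested other mitosis genes 2 rose and 6 fell in L-GMP against GMP, 8 rose and 2 fell in L-GMP-derived cells against GMP, and 9 rose and 2 fell in L-GMP-derived cells against L-GMP; their median differences were -0.012, 0.11 and 0.16. Their called shares were 15.1%, 18.9% and 20.8%, each below the 25.9%, 24.1% and 30.7% of all tested genes. Dlgap5, a spindle assembly factor, rose in both leukemic groups, by 1.03 log2 (adjusted p = 0.00158) and 1.12 log2 (adjusted p = 0.00112). Zwilch, of the kinetochore RZZ complex, rose by 1.20 log2 (adjusted p = 2.95e-04) over L-GMP, and Ska1, which holds kinetochores to microtubules, by 1.08 log2 (adjusted p = 0.00521) over GMP. Zwint, also at the kinetochore, fell in L-GMP, with -0.67 log2 (adjusted p = 0.0461), and rose from there to L-GMP-derived cells by 0.91 log2 (adjusted p = 0.00961). Of 34 tested DNA replication genes 1 rose and 5 fell, 2 rose and 2 fell, and 7 rose and 2 fell in the same 3 comparisons, with medians of -0.079, 0.015 and 0.075 and called shares of 17.6%, 11.8% and 26.5%, also each below those of all tested genes. Pola1, of DNA polymerase alpha, fell in L-GMP by 0.81 on the log2 scale (adjusted p = 2.82e-04), and Cdc45, of the replicative helicase, rose in L-GMP-derived cells by 0.73 log2 (adjusted p = 0.0082). Rfc4, a clamp loader subunit, and Pole, of DNA polymerase epsilon, fell in L-GMP and rose from there to L-GMP-derived cells, Rfc4 with -0.71 log2 (adjusted p = 0.00367) and 0.43 log2 (adjusted p = 0.0366) and Pole with -0.55 log2 (adjusted p = 0.0071) and 0.66 log2 (adjusted p = 0.00224). The difference between these lists and the members was not tested.

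The members' levels were related to each other, as a description over 9 arrays that share their groups. The correlation of each member with the mean of the others had a median of 0.60 and ran from -0.37 (Cks1b) to 0.97 (Ube2c), and 5 members (Cks1b, Cks2, Foxm1, Ect2 and Mad2l1) were below 0. Outside the lists, the tested genes most like the members' mean profile were Cog2 (r = 0.99), Gca (r = 0.98), App, Fanca and Aimp1 (r = 0.96 each), over the 9 arrays. Cog2, of a Golgi tethering complex, read 152 to 199.6 over all arrays.

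Markers of other cells and of RNA quality moved with some groups and arrays. Of 6 mature neutrophil markers (3 tested), the summed signal was 7890.2, 2152 and 3530.5 in GMP, 16026, 6026 and 8709 in L-GMP and 523 to 2818 in L-GMP-derived cells, and Mmp9 was at the floor on all arrays. GMP 1 and L-GMP 1, the arrays with the highest levels of most mitosis genes within their groups, also had the highest sums, and their part in the mitosis results was not tested. The 5 macrophage markers (2 tested) summed to 668 to 685 in GMP, 3327 to 3909 in L-GMP and 744 to 1708 in L-GMP-derived cells, with Mrc1 at the floor on all arrays. Both tested macrophage markers rose over GMP, by 1.93 and 3.03 log2 in L-GMP and by 1.12 and 1.21 log2 in L-GMP-derived cells. Both fell from L-GMP to L-GMP-derived cells. The 3 megakaryocyte markers (2 tested) summed to 623 to 732 in GMP, 474 to 676 in L-GMP and 357 to 427 in L-GMP-derived cells, where Itga2b was lower than in GMP with -1.99 log2 (adjusted p = 0.00103). The 4 B cell markers (3 tested) summed to 1764 to 1952, 1950 to 2181 and 1622 to 1998. Cd79b was lower in L-GMP-derived cells than in GMP, with -1.50 log2 (adjusted p = 0.0126), and than in L-GMP, with -2.23 log2 (adjusted p = 0.0011). The other tested B cell markers did not pass. In L-GMP-derived cells they differed by -0.013 and 0.071 log2 from GMP and by -0.0043 and 0.25 log2 from L-GMP. The 4 T and NK cell markers (2 tested) summed to 480.3 to 532, 582 to 699 and 443 to 567, and Cd3e was lower in L-GMP-derived cells than in L-GMP, with -0.63 log2 (adjusted p = 0.0122). Beta-actin 3' to 5' signal ratios, a measure of RNA length, were 7.37 ± 0.648 (SD, n = 3) in GMP, 5.17 ± 0.355 in L-GMP and 7.10 ± 0.140 in L-GMP-derived cells; by an exact permutation test L-GMP against GMP and L-GMP-derived cells against L-GMP each gave p = 0.1, the smallest possible with 3 arrays against 3, and L-GMP-derived cells against GMP gave p = 0.8. Ratios of 3' to middle signals were lower in L-GMP-derived cells than in GMP without overlap, at 3.01 ± 0.170 against 4.23 ± 0.537 for beta-actin and 1.86 ± 0.132 against 2.13 ± 0.101 for Gapdh (SD, n = 3, exact permutation p = 0.1 each). Gapdh 3' to 5' ratios were 7.86 ± 0.855 in GMP, 8.09 ± 3.05 in L-GMP and 7.21 ± 1.78 in L-GMP-derived cells, with exact permutation p-values of 0.5 to 1. In L-GMP the 3' to middle ratios were 2.26 ± 0.291 and 1.85 ± 0.0493, and against GMP each gave an exact permutation p = 0.1. Their part in the results was not tested.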

How the data were processed

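The authors deposited a table of linear array intensities for 22690 probe sets on 9 arrays of sorted mouse cells. MAS5 version 5 was the tool, per the submitters' processing notes. The scaling target and summary step stay unknown, being not given in the sources used here, and 1917 of 204210 values (0.939%) are negative. Signals under 62.4 (the 25th percentile) were set to that floor, log2 was taken, and only probe sets that exceeded 111 (the 40th percentile) in 3 or more arrays entered the fit, without 64 control probe sets. The floor understates differences of dim genes. limma 3.58.1 (R 4.3.3) was fitted with an intensity trend on all 9 arrays, with no covariates, and p-values were adjusted by Benjamini-Hochberg over 14578 probe sets. A gene was represented by its brightest tested probe set, and only probe sets with 1 gene symbol were named (20393 of 22690; 691 had several and 1606 none).

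Groups came from titles and sources; the L-GMP-derived group was assigned by elimination, and a GMP array without a number was called replicate 1. The members and the other lists were chosen with earlier results of these data known. Values on every array are given for members that passed in at least 1 comparison without overlap between groups, up to 12 in each direction and comparison by size, and always for Ccnb1, Cdk1, Plk1, Aurka, Aurkb, Top2a, Mki67, Birc5, Foxm1 and Cdc20 where measured. Kif11 and Incenp were added after their values were seen, because their probe sets disagreed. Cenpa is given as well, although it lay past the limit of 12 rises in L-GMP-derived cells against GMP. From each other list at most 4 genes past the threshold were named, and 5 genes outside the lists by correlation with the members' mean. Promoters were scanned for exact letters. On simulated data 200 of 14578 probe sets were changed, with independent noise. In L-GMP-derived cells against GMP 37.3% of 1.5-fold and 79.1% of 2-fold changes were recovered, so small differences can be missed. In the data 24.4% of tested probe sets passed in that comparison, a larger share than was changed in the simulation. The adjusted p depends on that share, so the recovery rates need not hold for the data. The number of arrays limits the precision. Alternatives were other scalings, filters, probe set rules, models and arrays left out.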

Additional observations from a re-analysis of the deposited data

Results flagged for a closer look

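For 3 mitosis genes every L-GMP array lay on one side of the GMP mean and every L-GMP-derived array on the other. Bub1, the checkpoint kinase, was lower in L-GMP and higher in L-GMP-derived cells than the GMP mean, and the difference between the leukemic groups was 0.75 log2 (adjusted p = 0.0073, limma). Ccna2 did the same with a difference of 0.23 log2 (adjusted p = 0.0263). Foxm1 went the other way with a difference of -0.12 log2, which did not pass the test (adjusted p = 0.438).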

How the results depend on the processing

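The median differences of the members moved by less than the spread between arrays (0.13 log2) under every alternative run. That limit is larger than the medians of 0.11 for L-GMP against GMP and 0.12 for L-GMP-derived cells against L-GMP. It therefore cannot show that these 2 medians were stable. With 1 array left out the medians ranged from 0.080 to 0.17 for L-GMP against GMP, 0.21 to 0.30 for L-GMP-derived cells against GMP and 0.079 to 0.20 for L-GMP-derived cells against L-GMP. The counts of called members moved more. With 1 array left out they ranged from 4 to 14, 11 to 21 and 5 to 16 in these comparisons, against 12, 18 and 11. Without the filter on dim probe sets 7 members passed in L-GMP against GMP and 5 in L-GMP-derived cells against L-GMP. Array weights gave 19 in each of these, and a fit of only the 6 arrays compared gave 4 in the latter. Whether the replicate numbers pair the arrays is not known here. Deviations of same-numbered L-GMP and L-GMP-derived arrays from their group means correlated at -0.31, -0.13 and -0.27. Those of differently numbered arrays ran from -0.18 to 0.30. Such correlations cannot tell whether a culture came from the L-GMP of the same number. A fit with the replicate block gave 7, 9 and 6 called members. In that fit GMP 1, whose title has no number, formed a block of its own and added nothing to the differences. The blocks also left fewer residual degrees of freedom, so the lower counts cannot be put down to pairing alone. Leaving out L-GMP 1 and L-GMP-derived 1 together, chosen after seeing the data, gave 20 for L-GMP-derived cells against L-GMP. Without _x_at and _s_at probe sets Ncaph reversed to 0.59 log2 (adjusted p = 0.0241) in L-GMP against GMP, and Bub3 to 0.12 log2 (adjusted p = 0.525) in L-GMP-derived cells against L-GMP, because another probe set then stood for each gene. For the other moves the cause was not tested. Calls kept in every alternative were 3 of 12 (Aurka, Ccnb2 and Smc4), 7 of 18 (Aurka, Bub1b, Cdk1, Kif20a, Prc1, Top2a and Tpx2) and 3 of 11 (Bub1, Hmmr and Mybl2).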
